A study of Arabidopsis thaliana with 44 samples.

Results

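The comparison is between atm-1 and WT seedlings of Arabidopsis thaliana collected 12 h after HZE irradiation. The sample titles gave the groups, 2 atm-1 arrays and 2 WT arrays, which are 4 of the 44 arrays of a series with 22 groups of 2. The atm-1 seedlings carry a mutation in the gene of the kinase ATM, WT carries none, and both received 30 Gy of iron nuclei accelerated to high energy at an age of 5 days and were collected at 1:09 am on day 2. The study asked which transcripts respond to each radiation and which of those responses need ATM, and this pair gives the genotype difference late after HZE with dose, time and hour of day held equal. Both genotypes at 4 other conditions were set beside it: HZE 6 h (7:24 pm), gamma 12 h (100 Gy of gamma rays, 8:40 pm), and unirradiated seedlings of day 1 (10:45 am) and day 2 (9:15 am). Seedlings of unirradiated day 2 and of the 24 h groups described below were 6 days old, and those of the other conditions 5. Each RNA was pooled from 30 to 40 whole plants. The labels do not say that replicates were separate cultures, so the spread between replicates, which p-values measure, may be technical. For each gene p-values and standard errors (SE) use that spread pooled over all 22 groups, not over the 4 arrays compared alone. HZE was given in 2 runs, which ended at 1:09 pm and 1:28 pm, and the labels do not say which replicate came from which run.

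ATM is a protein kinase that is activated at DNA double-strand breaks and phosphorylates many targets. In plants much of the transcriptional answer to such breaks runs from ATM through the transcription factor SOG1, which raises repair and cell cycle inhibitor genes and, with repressive MYB factors, lowers genes of mitosis. HZE particles leave dense tracks of clustered breaks, whereas gamma rays spread damage more evenly through the nucleus. The ATM transcript was not analysed here, so the genotype labels have no check on the mutated gene.

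The values are log2 expression as the authors deposited it, 1 value per gene and array, and differences are atm-1 minus WT on that scale, so that 1 unit is a doubling. The 4 arrays had medians of 5.93 and 5.93 in atm-1 and 5.96 and 5.93 in WT, and the 2 replicates correlated at 0.997 in atm-1 and at 0.995 in WT over all probe sets. Calls were made with limma's moderated test where the Benjamini-Hochberg adjusted p, taken over 13356 genes, was below 0.05, and every adjusted p given here is from that test. Leaf markers were high in both groups. RCA, which encodes Rubisco activase, was at 13.98 and 13.91 in atm-1 and at 13.80 and 13.86 in WT, and none of the 7 photosynthetic, 2 root, 4 root hair, 4 stomatal, 2 meristem or 3 seed and embryo markers measured was called by limma. Over all genes 8.73% were called, and lists this short say little when none is called. At an unadjusted p under 0.05, 2 stomatal markers and 0 of the others passed, beside 18.6% of all genes. Of 6 chlorophyll synthesis markers 1 was called higher and 1 lower. The seed oleosin gene OLEO3 was low, at 3.91 and 4.00 in atm-1 and at 3.97 and 3.83 in WT.

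At 12 h after HZE, 14 of 20 chromosome segregation genes and 6 of 8 histone genes were higher in atm-1. All 14 early damage-induced genes, 9 of 13 rapid stress genes, 5 of 9 U-box ligase genes and 3 of 7 calmodulin-like genes were lower. Of the U-box and calmodulin-like genes, CML37, CML38, PUB22 and PUB23 are also counted among the rapid stress genes. The segregation and histone lists were drawn up after the values were seen. The early damage-induced list was chosen from the WT response in these samples, and the others with earlier results known. These counts are descriptions and no independent evidence. In all 1166 genes were called, which is 8.73% of those tested. Of these 578 (4.33%) were higher and 588 (4.4%) lower in atm-1. The lower calls were the larger ones, with a median difference of -0.70 against 0.60 for the higher ones. At least 2-fold differences were found for 92 higher genes (0.689%) and 157 lower genes (1.18%), and at least 4-fold differences for 4 higher and 33 lower genes. The median difference over all 13356 genes, against which the medians of gene lists can be read, was -0.03 at HZE 12 h, -0.01 in unirradiated seedlings, 0.03 at HZE 6 h and -0.04 at gamma 12 h. In 1165 of the 1166 calls both atm-1 arrays lay beyond both WT arrays. Over all genes that separation was also common, with 2902 (21.7%) separated upwards and 3790 (28.4%) downwards. Without atm-1 replicate 1 the total was 674 and without atm-1 replicate 2 it was 692.

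**Figure D1:**
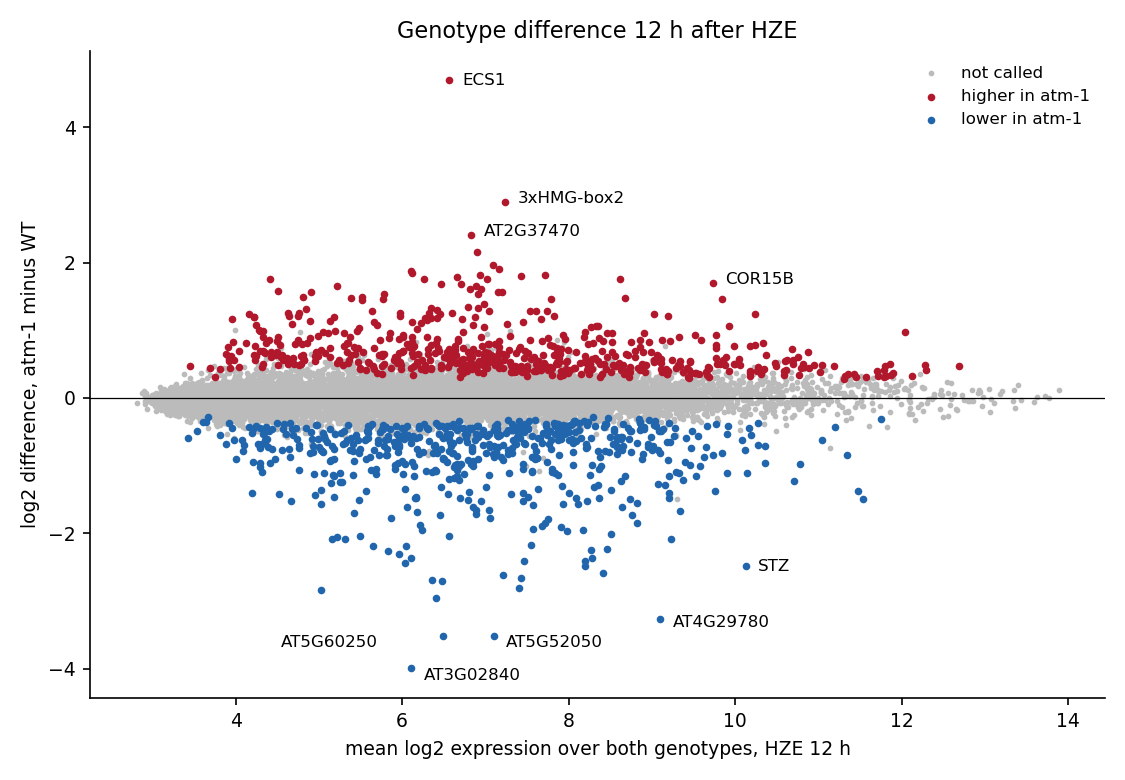
Difference between atm-1 and WT 12 h after HZE (vertical, log2) against the mean level of the gene over both genotypes (horizontal, log2), 1 point for each of 13356 genes. The 578 genes called higher in atm-1 are red, the 588 called lower are blue, and the blue points reach 4.00 below 0 at AT3G02840, while ECS1 stands alone at 4.69 above it.

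Genes for chromosome condensation and the spindle were higher in atm-1. The gene 3xHMG-box2, whose protein binds condensed mitotic chromosomes, was at 8.76 and 8.60 in atm-1 and at 5.87 and 5.72 in WT. The groups lay far apart, and the difference of 2.89 (SE 0.21, adjusted p 2.99e-11) is 7.41-fold. AUR1, an Aurora kinase of the spindle and cell plate, had 8.02 and 7.48 in atm-1, against 6.25 and 6.02 in WT, a difference of 1.61 (SE 0.16, adjusted p 2.15e-08). Both atm-1 arrays were above both WT arrays, although the atm-1 replicates were further apart than the WT ones. AUR2 differed by 1.47 and AUR3, the Aurora kinase of centromeres, by 1.03. Of a list of 42 mitosis and cytokinesis genes 6 were measured, and all 6 were higher, with a median difference of 1.35. Without atm-1 replicate 1 AUR3 was no longer called, at 0.68, and the other 5 were.

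A list of 20 chromosome segregation genes with a symbol, which was drawn up after the values were seen, adds further members, and it contains the 6 genes above. In it 14 genes were higher and none lower, with a median of 0.91. Most of the genes given from it were likewise chosen after their values were seen. Without atm-1 replicate 1 the count was 12, and BUB3.2 was at 0.52 and not called. TOPII, the topoisomerase that untangles sister DNA molecules, was at 7.89 and 7.53 in atm-1 and at 6.00 and 6.12 in WT, a difference of 1.65 (SE 0.19, adjusted p 2.18e-07). The spindle checkpoint genes BUB3.1, BUB3.2 and BUBR1 were higher by 1.04, 0.81 and 0.82. WYR, the INCENP partner of Aurora kinases, was higher by 1.01, and Haspin, a kinase that marks histone H3 at mitosis, by 0.57. The phragmoplast motor gene KINESIN-12B was higher by 1.21 and UBC20, an E2 enzyme related to those that mark mitotic cyclins for breakdown, by 1.09. The 6 genes not called were ATSMC2 of condensin at 0.51 (adjusted p 0.051), UBC19 at 0.34, the anaphase-promoting complex genes HBT at 0.16 and CDC27a at -0.22, ATMAP65-6 at 0.03 and KINESIN-13A at -0.12. In these bulk samples fewer dividing cells and less RNA per cell cannot be told apart.

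Histone genes followed the same direction. HTB2, which encodes a histone H2B, had 7.76 and 8.04 in atm-1 and 6.29 and 6.00 in WT, a difference of 1.75 (SE 0.15, adjusted p 1.36e-09). HTB1 was at 9.38 and 9.46 in atm-1 and at 7.93 and 7.97 in WT, higher by 1.47. HTB4, another H2B gene, was at 10.50 and 10.42 in atm-1 and at 9.38 and 9.42 in WT, higher by 1.06 (SE 0.09). All 3 genes were separated between the genotypes by more than the spread of either pair. Among 8 histone genes with a symbol, a list also drawn up after the values were seen, 6 were higher and none lower, with a median of 0.84. They include HTB11 at 1.17, the centromeric histone gene HTR12 at 0.63 and the linker histone gene HON4 at 0.54, whereas HIS1-3 (-0.22) and MGH3 (-0.16) were not called. Without atm-1 replicate 2 HTR12 was no longer called, at 0.55. PRL, an MCM gene of replication licensing, stood apart from the histones, with a difference of 0.11 at HZE 12 h (adjusted p 0.728), of 1.49 at HZE 6 h (adjusted p 2.54e-10) and of 0.68 at gamma 12 h (adjusted p 0.000675).

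Relative to unirradiated seedlings of their own genotype, 4 of the 6 mitosis genes stood above their level in atm-1, and all 6 stood below it in WT. The 6 genes of the mitosis list had a median change of 0.21 in atm-1 and of -1.01 in WT. For 3xHMG-box2 the change was 1.00 in atm-1 and -1.73 in WT, for AUR1 it was 0.16 in atm-1 and -1.26 in WT, and for HTB2 it was 0.69 in atm-1 and -1.02 in WT. AUR2 was below its unirradiated level in both, at -0.56 in atm-1 and -1.76 in WT, and BUBR1 was at -0.08 in atm-1 and -0.58 in WT. Unirradiated seedlings were collected in the morning and the HZE 12 h seedlings at night, and the unirradiated seedlings of day 2 were older. These changes therefore hold radiation, hour of day and, in part, age together. The genotype difference does not.

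**Figure D2:**
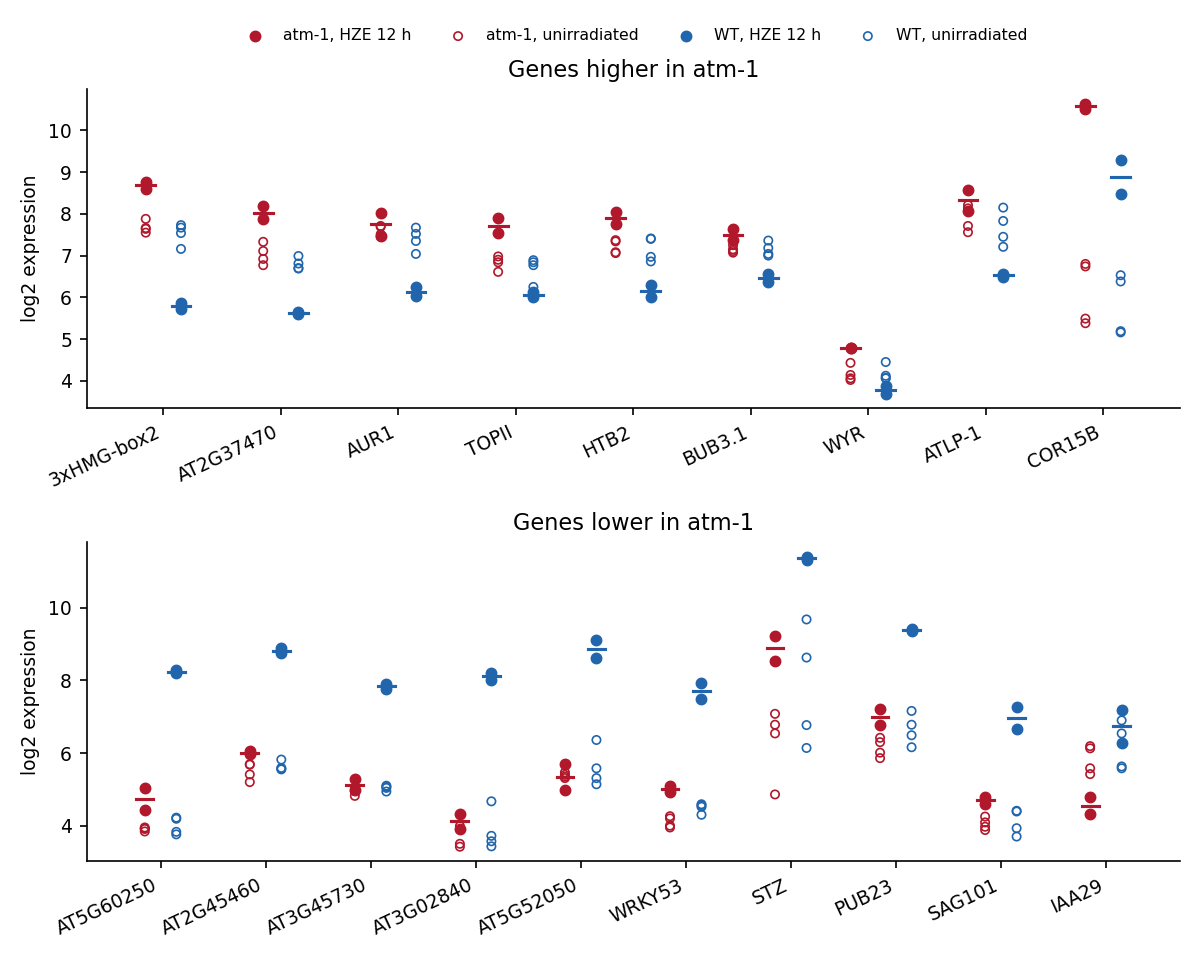
Log2 expression on every array for 9 genes higher in atm-1 (top) and 10 genes lower in atm-1 (bottom). Filled points are the 2 arrays 12 h after HZE with their mean as a bar, open points the 4 unirradiated arrays, red for atm-1 on the left and blue for WT on the right of each gene. The red filled points of 3xHMG-box2, at 8.76 and 8.60, lie above every open point, and the blue ones, at 5.87 and 5.72, below every open point.

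Many of the other genes that stood furthest above WT in atm-1 are known here only by their locus. AT2G37470 had 7.88 and 8.18 in atm-1 and 5.61 and 5.64 in WT, a difference of 2.41 (SE 0.15, adjusted p 1.89e-12), and it ranked just after 3xHMG-box2. AT5G17160 was higher by 2.15, AT3G02640 by 1.97, AT3G17680 by 1.91, AT4G03100 by 1.87, AT4G15830 by 1.85 and AT4G17245 by 1.82. ATLP-1, a thaumatin-like protein gene, was at 8.58 and 8.06 in atm-1 and at 6.49 and 6.56 in WT, a 3.47-fold difference (adjusted p 1.64e-09). All 8 were also called higher in atm-1 at HZE 6 h and at gamma 12 h, and none was called in unirradiated seedlings. Being above WT did not always mean being above the unirradiated level: AT4G17245 was at -1.47 in atm-1 and -3.07 in WT relative to unirradiated seedlings, and AT3G02640 at -0.57 in atm-1 and -2.30 in WT. AT3G19430, at 7.66 and 7.45 in atm-1 and at 6.24 and 5.31 in WT, was called at HZE 12 h with a difference of 1.78 (SE 0.38, adjusted p 0.00147), and its difference was 0.36 at HZE 6 h and 0.05 at gamma 12 h, neither of them called. Without WT replicate 2 the difference of AT3G19430 was 1.31 and not called. AT3G28320 was higher by 1.81 at HZE 12 h but lower by -0.64 in unirradiated atm-1 (adjusted p 0.0169).

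Genes that WT seedlings raise early after irradiation were lower in atm-1 12 h after HZE. The list of 14 such genes was chosen from the response of WT in these same samples, so its direction is no independent evidence. All 14 were lower, with a median of -1.61. AT5G60250 was at 5.03 and 4.44 in atm-1 and at 8.29 and 8.20 in WT, a difference of -3.51 (SE 0.14, adjusted p 2.05e-17). AT2G45460 was at 6.05 and 5.96 in atm-1 and at 8.88 and 8.75 in WT, and AT3G45730 at 5.28 and 4.98 in atm-1 and at 7.90 and 7.77 in WT. None of these 3 genes overlapped between the genotypes, and AT2G45460 and AT3G45730 differed by -2.81 and -2.70. AT4G25330 was lower by -2.09, AT4G22960 by -1.94, AT2G18600 by -1.90, AT3G48770 by -1.56 and AT5G48020 by -1.55. The smallest differences were those of AT5G67460 (-0.95), AT5G23910 (-0.67) and ATMND1 (-0.62). AT5G23910 and ATMND1 each lost their call without some of the 4 arrays, and AT5G23910 was at -0.42 without WT replicate 1. Relative to unirradiated seedlings all 14 were above their level in both genotypes, by a median of 0.90 in atm-1 and of 2.66 in WT.

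The median gap in this list was smaller at each later time. The list was chosen for an early rise in WT in these same samples. Its early gap and the later narrowing are therefore no independent evidence. At 1.5 h after HZE its median difference was -3.70, at 6 h -2.57, at 12 h -1.61 and at 24 h -0.75, and all 14 genes were below WT at each of these times. AT5G23910 is an example, with a difference of -3.15 at HZE 6 h and -0.67 at HZE 12 h. By contrast AT5G60250 differed by -3.67 at HZE 6 h and -3.51 at HZE 12 h, with WT means of 7.85 at 6 h and 8.25 at 12 h. These are descriptions of group medians and means, since the change of the genotype difference between 6 and 12 h was not tested.

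Only 7 members of a list of 51 repair and recombination genes were measured. Of these 3 were lower and none higher, beside 4.4% lower and 4.33% higher among all genes. ATLIG4, the ligase of non-homologous end joining, was at 5.65 and 5.57 in atm-1 and at 6.41 and 6.22 in WT, lower by -0.70 (SE 0.15, adjusted p 0.0024). ATMND1, which acts in recombination, was at 5.30 and 5.02 in atm-1 and at 5.66 and 5.89 in WT (-0.62, adjusted p 0.00994), and POLH, a polymerase that copies past lesions, was at 4.15 and 4.26 in atm-1 and at 4.57 and 4.77 in WT (-0.47, adjusted p 0.0234). The arrays did not overlap for any of the 3. Leaving out 1 array reduced the 3 calls to 1 or 2: ATLIG4 was not called without WT replicate 1 (-0.60), ATMND1 without WT replicate 2 (-0.50) or atm-1 replicate 2 (-0.48), and POLH without WT replicate 2 (-0.37) or either atm-1 array. The larger annotation list of 25 repair, recombination and damage tolerance genes held the same 3 as its lower calls, with Haspin as its 1 higher call.

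**Figure D3:**
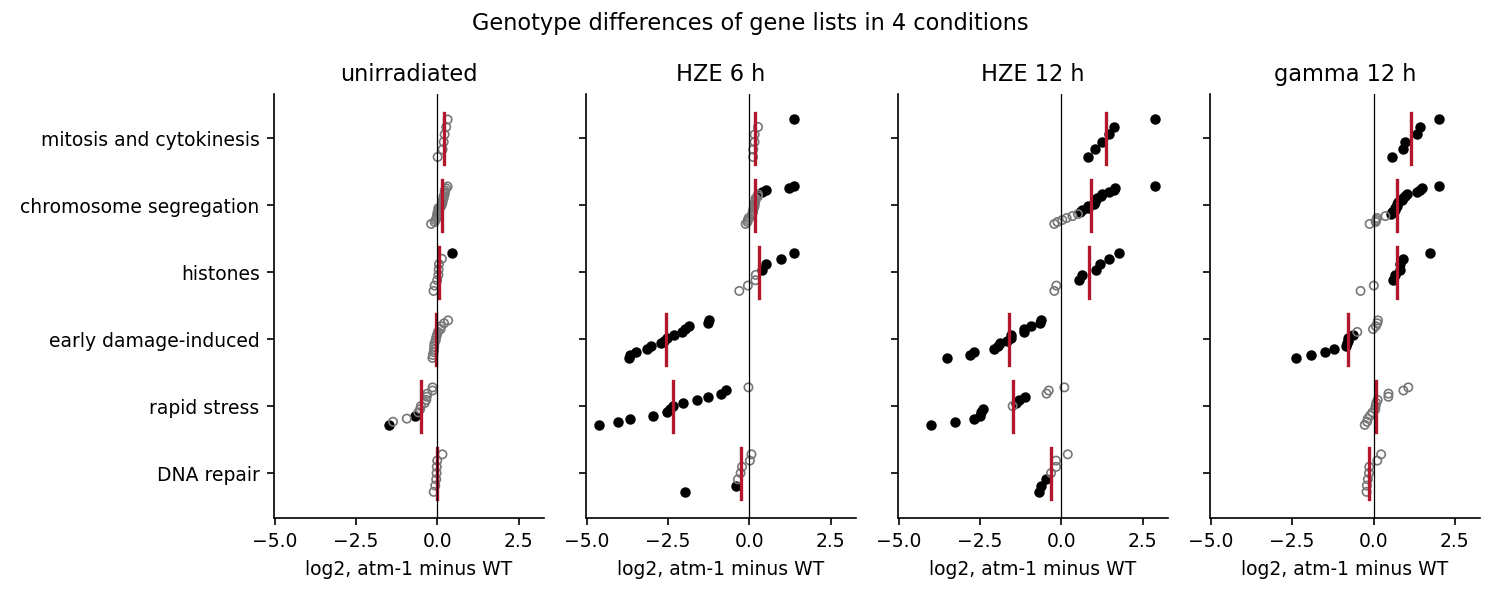
Difference between atm-1 and WT (log2) of each measured member of 6 gene lists in unirradiated seedlings, at HZE 6 h, at HZE 12 h and at gamma 12 h. Each point is 1 gene, filled where called, and the red bar is the list's median. At HZE 12 h the mitosis list lies at a median of 1.35 and the early damage-induced list at -1.61, and the rapid stress list is at -1.50 at HZE 12 h and 0.06 at gamma 12 h.

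Genes of rapid stress and defence signalling were also lower, among them the gene with the lowest difference of all. AT3G02840 was at 4.32 and 3.91 in atm-1 and at 8.21 and 8.01 in WT, a 16-fold difference (-4.00, SE 0.39, adjusted p 7.78e-09). WRKY53, a transcription factor of defence and senescence, was at 5.10 and 4.94 in atm-1 and at 7.93 and 7.49 in WT (-2.69, SE 0.28, adjusted p 3.09e-08). AT3G02840 was above its unirradiated level by 0.41 in atm-1 and by 4.26 in WT, and WRKY53 by 0.92 in atm-1 and by 3.22 in WT. Of 13 measured members of the rapid stress list 9 were lower and none higher, with a median of -1.50. The 4 not called were AT4G27652 at -1.50 (adjusted p 0.0914), WRKY6 at -0.46, AT1G66090 at -0.39 and the U-box ligase gene PUB24 at 0.09.

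STZ, a zinc finger repressor raised by salt and cold, and AT4G29780 belong to the same list. STZ was at 9.23 and 8.54 in atm-1 and at 11.41 and 11.33 in WT (-2.49, SE 0.46, adjusted p 0.000308). AT4G29780 was at 8.19 and 6.74 in atm-1 and at 10.59 and 10.87 in WT (-3.27, SE 0.57, adjusted p 0.000161), with atm-1 replicates that were themselves far apart. Without irradiation STZ was at 7.08 and 6.54 on day 1 and 6.78 and 4.86 on day 2 in atm-1, against 6.77 and 6.14 on day 1 and 9.68 and 8.63 on day 2 in WT. Unirradiated WT thus varied between days by more than its replicates did, and the mean genotype difference over both days was already -1.49 (adjusted p 0.0142). Averaged over both days, all 13 genes of the list lay below WT in unirradiated atm-1, by a median of -0.50, with 2 of them called. The days differed. On day 1 AT4G27652 averaged 6.23 in atm-1 and 4.59 in WT, and AT4G29780 6.23 in atm-1 and 5.78 in WT. On day 2 AT4G27652 averaged 6.11 in atm-1 and 8.92 in WT, and AT4G29780 5.37 in atm-1 and 8.54 in WT. WRKY53 was below WT on day 1 too, at 4.23 in atm-1 and 4.54 in WT. The difference at HZE 12 h was larger than that in unirradiated seedlings, by the test of the difference itself, for 3 of the 13. These were AT3G02840 by -3.85 (adjusted p 1.85e-06), WRKY53 by -2.31 (adjusted p 3.38e-05) and PUB23 by -1.90 (adjusted p 0.000224). For STZ that test gave an adjusted p of 0.451 and for AT4G29780 a difference of -1.90 (adjusted p 0.135).

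Some calcium sensor, U-box ligase and defence genes were lower, and CML38, CML37, PUB23 and PUB22 among them belong to the rapid stress list too. The calmodulin-like genes CML38, CML37 and CML23 were lower by -2.49, -1.40 and -0.93, and the other 4 of 7 were not called. CML23 differed as much without irradiation, by -0.95 (adjusted p 0.00335), and for CML38, at -0.94 in unirradiated seedlings, the test of HZE 12 h against unirradiated seedlings gave -1.55 (adjusted p 0.0667). Among 9 U-box ubiquitin ligase genes 5 were lower, beside 4.4% lower over all genes. PUB23, which with PUB22 dampens immune signalling, was at 7.21 and 6.77 in atm-1 and at 9.43 and 9.35 in WT (-2.40, SE 0.26, adjusted p 8.78e-08), while PUB19 was lower by -2.04, PUB22 by -1.11, PUB26 by -1.07 and PUB25 by -0.81. PUB22 was lower without irradiation too, by -0.70 (adjusted p 0.00114), and its difference at HZE 12 h minus that of unirradiated seedlings was -0.42 (adjusted p 0.332). For PUB19 that test gave -1.34 (adjusted p 0.053) and for PUB25 -0.66 (adjusted p 0.197). Without WT replicate 2 PUB25 was at -0.22 and not called, and CML37 at -1.27 and not called. SAG101, a lipase-like partner of the immune regulator EDS1, was at 4.60 and 4.80 in atm-1 and at 6.65 and 7.27 in WT, lower by -2.26 (SE 0.16, adjusted p 2.99e-11). The jasmonate-linked factor gene ORA47 was at 6.00 and 5.82 in atm-1 and at 8.60 and 8.45 in WT (-2.61, SE 0.53, adjusted p 0.00102), and OPCL1 of jasmonate synthesis was lower by -1.34 (adjusted p 0.0243) but was not called without WT replicate 2 (-0.95) or either atm-1 array. GRX480, a glutaredoxin gene raised by salicylate, was lower by -1.46 (adjusted p 0.0111), and not called without either replicate 2. The test of HZE 12 h against unirradiated seedlings was not passed by ORA47 (-2.04, adjusted p 0.0719) or GRX480 (-1.49, adjusted p 0.0638). SAG101 (-2.20, adjusted p 1.04e-08) and OPCL1 (-1.88, adjusted p 0.0142) passed it. The defensin gene PDF1.2 differed by 0.17, the thionin gene THI2.1 by -0.01 and the chitinase gene CHI by -0.15, none of them called.

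Other genes with large negative differences belong to none of these lists. AT5G52050, named DTX50 and described as a detoxification efflux carrier in the gene table, was at 5.70 and 4.99 in atm-1 and at 8.61 and 9.10 in WT (-3.51, SE 0.32, adjusted p 2.67e-09). AT2G24600 was lower by -2.95, AT3G01830 by -2.84, AT4G27654 by -2.66 and AT1G19380 by -2.59. Relative to unirradiated seedlings these 5 genes were above their level in WT, AT5G52050 by 3.26, AT1G19380 by 2.40 and AT4G27654 by 3.25. In atm-1 AT5G52050 was at -0.04, AT1G19380 at -0.10, AT2G24600 at -0.23, AT3G01830 at 0.23 and AT4G27654 at 1.64. AT4G27654 differed by -1.05 in unirradiated seedlings (adjusted p 0.145). It alone of the 5 did not pass the test of HZE 12 h against unirradiated seedlings (-1.61, adjusted p 0.128). The tetraspanin genes TET8 and TET9, for membrane proteins that organise other proteins, were lower by -1.22 and -1.52, and the other 13 of 15 were not called. BZIP60 and BZIP28, transcription factors of the unfolded protein response, were lower by -0.63 and -0.37. Among 14 bZIP genes 2 were called lower and 1 higher, with a median of -0.08. Among 16 heat and unfolded protein genes 2 were called lower and 1 higher, with a median of -0.06. The shares over all genes, beside which these 3 lists can be read, were 4.4% lower and 4.33% higher.

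Growth, wall and cold genes moved in both directions. IAA29, an auxin-responsive repressor, was at 4.33 and 4.78 in atm-1 and at 7.18 and 6.29 in WT (-2.18, SE 0.25, adjusted p 2.11e-07). In atm-1 it stood below its unirradiated level, by -1.27, and in WT above it, by 0.57. Among 28 expansin and xyloglucan endotransglucosylase (XTH) genes, which loosen and remodel the wall, 7 were higher and 3 lower. XTH18 was at 6.80 and 6.93 in atm-1 and at 8.46 and 8.83 in WT (-1.78, SE 0.21), and EXLA1 was lower by -1.40. On the other side EXPB3 was higher by 1.21, EXLB1 by 1.15, XTH20 by 0.98 and EXPA16 by 0.85. EXPB3 was not called without WT replicate 1 (0.97), nor EXPA16 without WT replicate 2 (0.71) or atm-1 replicate 1 (0.77). TUB7 was the 1 called gene of 7 tubulins, higher by 0.83. Over all genes 4.33% were called higher and 4.4% lower.

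COR15B, which encodes a chloroplast protein made in the cold, was at 10.52 and 10.64 in atm-1 and at 8.47 and 9.29 in WT (1.70, SE 0.19, adjusted p 1.26e-07). Both genotypes were far above their unirradiated level, by 4.48 in atm-1 and by 3.07 in WT. Its neighbour in function COR15A was at 9.45 and 9.66 in atm-1 and at 8.59 and 8.79 in WT, higher by 0.86 (adjusted p 0.0183), and called without WT replicate 2 but not without any of the other 3 arrays (0.76 to 0.96). XERICO, a RING finger gene that raises abscisic acid, was higher by 0.72. Of 12 cold and LEA genes these 3 were higher and 1, the lipocalin gene TIL, was lower, by -0.69, and the median of the group was -0.03. The separate list of cold and dehydration genes also held AT4G25580, lower by -1.13 (adjusted p 0.00538), at -0.59 and not called without WT replicate 1 and at -1.10 and not called without atm-1 replicate 1. Sugar transporters of the SWEET family, 14 of them measured, were also split. SWEET11 was higher by 0.76, SWEET2 by 0.49 and SWEET17 by 0.48, and SWEET14 was lower by -1.25 and SWEET4 by -0.52. The shares called over all genes were 4.33% higher and 4.4% lower. SWEET17 differed by 0.56 in unirradiated seedlings too (adjusted p 0.000532), and at HZE 12 h it was called without WT replicate 2 but not without any of the other 3 arrays.

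Several gene groups held no called gene at HZE 12 h. None of 69 plastid-encoded genes, 15 mitochondrial genome genes, 24 nuclear photosynthesis genes, 21 BGLU genes, 15 GH9 genes, 7 flavonoid and anthocyanin genes, 4 glucosinolate genes, 4 iron response genes or 3 clock genes was called by limma in either direction. At an unadjusted p under 0.05, which 2478 of all 13356 genes (18.6%) passed, there were 8 of the plastid-encoded genes, 2 each of the nuclear photosynthesis and iron response genes, 1 each of the mitochondrial, BGLU and flavonoid genes, and 0 of the GH9, glucosinolate and clock genes. GI, a clock gene, was at 6.67 and 6.60 in atm-1 and at 6.51 and 6.35 in WT, while at gamma 12 h it was lower in atm-1 by -0.56 (adjusted p 0.00632). In the chlorophyll synthesis list HEME2 was higher by 0.57 and HEMA2 lower by -0.68, and the other 4 of 6 were not called. HEME2 lost its call without WT replicate 1 (0.38) and HEMA2 without WT replicate 2 (-0.55).

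ECS1, a gene for a cell wall protein, had the highest difference, 4.69 (SE 0.95, adjusted p 0.000949), and it varied widely between atm-1 arrays. It was at 9.64 and 8.19 in atm-1 and at 4.22 and 4.22 in WT. Over the whole series its 20 atm-1 arrays ranged from 3.63 to 9.64 with a median of 6.68, and 12 of them were above 6. Its 24 WT arrays ranged from 3.59 to 4.28, and 0 were above 6. In unirradiated seedlings the difference was 1.68 (adjusted p 0.288), and the test of HZE 12 h against unirradiated seedlings gave 3.02 (adjusted p 0.162). Group means in atm-1 ran from 4.15 at HZE 6 h to 8.94 at gamma 24 h in no steady order. The genes most like it over the 20 atm-1 arrays were AT3G53650 (Pearson r 0.74), AT5G03350 (0.72), AT5G50110 (0.70), AT5G61190 (0.69) and JAL33 (0.67), given as a description of arrays that share genotype and condition. JAL33, a jacalin-like lectin gene, was higher by 1.62 at HZE 12 h and by 1.75 in unirradiated atm-1 (adjusted p 0.00411), and its HZE 12 h call was lost without any 1 of the 4 arrays.

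Without irradiation few genes separated the genotypes. Over both days 172 genes were called (1.29%), 60 higher (0.449%) and 112 lower (0.839%) in atm-1. At least 2-fold differences of this mean over both days were rare, with 4 higher (0.0299%) and 3 lower (0.0225%). Day 1 alone gave 3 higher and 26 lower genes of at least 2-fold, and day 2 alone 9 higher and 33 lower. Of the 578 genes higher at HZE 12 h 21 were among them (3.63%, or 35% of the 60), and of the 588 lower ones 20 (3.4%, or 17.9% of the 112). The genotype difference at HZE 12 h differed from that of unirradiated seedlings for 654 genes (4.9%), 295 of them upwards (2.21%) and 359 downwards (2.69%). By at least 2-fold, 0.621% of genes moved upwards and 0.883% downwards in this test. For 3xHMG-box2 that difference was 2.73 (adjusted p 1.59e-08), for AUR1 1.42 (adjusted p 1.67e-05), for HTB2 1.70 (adjusted p 3.67e-07) and for AT5G60250 -3.42 (adjusted p 1.33e-14). In the early damage-induced list 13 of 14 genes and in the mitosis list 5 of 6 passed this test. The early list was chosen from the WT response in these samples and the mitosis list with earlier results known. Neither count is independent evidence. In the root hair list 2 of the 4 genes were lower in unirradiated atm-1, with a median of -0.54, and none was called at HZE 12 h.

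At HZE 6 h the genotypes differed for 1146 genes (8.58%), 537 higher (4.02%) and 609 lower (4.56%) in atm-1. Of these 55 were at least 2-fold higher and 237 (1.77%) at least 2-fold lower. The lower genes of 12 h were largely in place at 6 h: 383 of the 588 were also lower then (65.1%, or 62.9% of the 609). Among those at least 2-fold lower at 12 h, 149 of 157 were lower at 6 h (94.9%). Of the 578 higher genes 193 were higher at 6 h (33.4%, or 35.9% of the 537). In the mitosis list 1 of 6 genes was called at HZE 6 h, with a median of 0.16, and whether this differed from HZE 12 h was not tested. AUR1 was at 5.57 and 5.63 in atm-1 and at 5.56 and 5.39 in WT at HZE 6 h, a difference of 0.12 (adjusted p 0.827), so the genotypes lay together at a level below every unirradiated array. Of the 20 chromosome segregation genes 4 were higher at HZE 6 h, with a median of 0.16, and of the 8 histone genes 4, with a median of 0.30. TOPII at 1.23, HTB2 at 1.36 and 3xHMG-box2 at 1.37 were among those called, while WYR (0.08), BUB3.1 (0.19) and HTR12 (-0.05) were not. SWEET14 differed by 0.25 at 6 h, not called, and by -1.25 at 12 h.

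**Figure D4:**
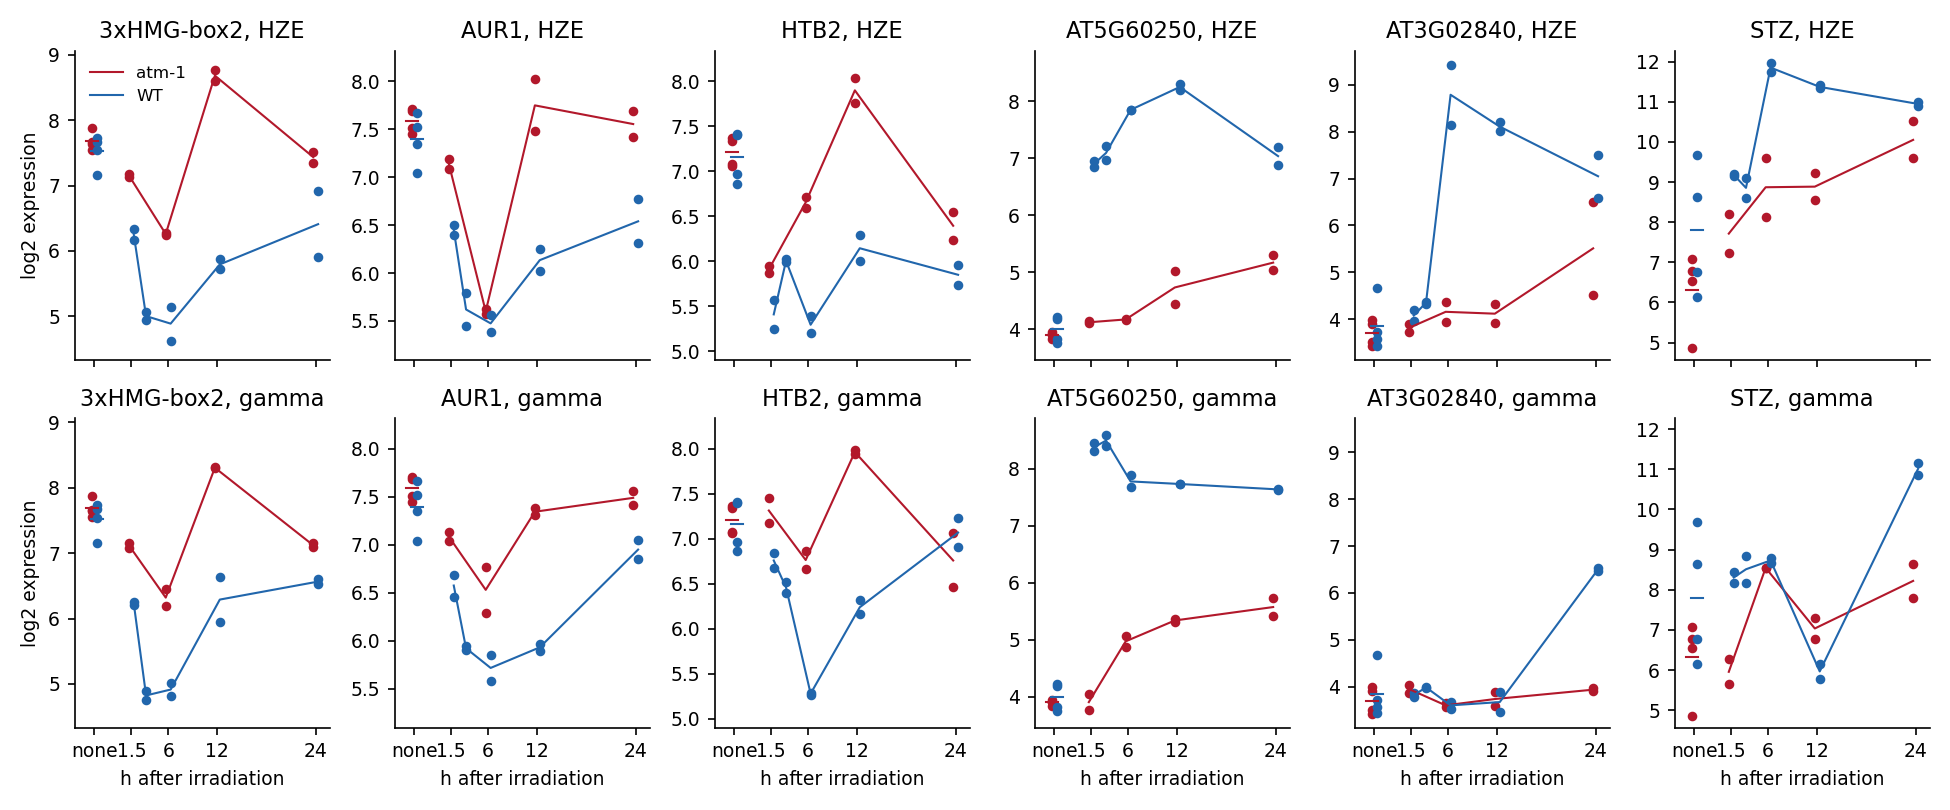
Log2 expression of 6 genes (columns) on every array against hours after HZE (top row) and after gamma rays (bottom row), with unirradiated arrays of both days at the left marked "none". Red is atm-1 and blue WT, points are arrays, lines join group means, and a 3 h group exists for WT only. AUR1 means are 5.60 in atm-1 and 5.48 in WT at HZE 6 h and part at 12 h, to 7.75 in atm-1 and 6.14 in WT, while AT3G02840 stays near its unirradiated level in both genotypes up to 12 h after gamma rays.

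At gamma 12 h, the same time after the other radiation, 421 genes differed between the genotypes (3.15%), 270 higher (2.02%) and 151 lower (1.13%) in atm-1. At least 2-fold differences were mostly upwards, with 77 higher (0.577%) and 11 lower (0.0824%). The 2 radiations differ here in dose and in hour of day as well, 1:09 am after HZE and 8:40 pm after gamma rays, and these cannot be told apart. Of the 92 genes at least 2-fold higher at HZE 12 h, 68 were higher at gamma 12 h (73.9%). Of the 157 at least 2-fold lower, 18 were lower (11.5%) and 4 higher at gamma 12 h. The mitosis list was higher in both, 6 of 6 after gamma rays with a median of 1.15, and 15 of 20 chromosome segregation genes were higher. 3xHMG-box2 was at 8.31 and 8.30 in atm-1 and at 5.95 and 6.63 in WT at gamma 12 h, a difference of 2.02, and AUR1 differed by 1.42.

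In the early damage-induced list 9 of 14 genes were lower after gamma rays, with a median of -0.79. AT5G60250 was at 5.32 and 5.36 in atm-1 and at 7.73 and 7.73 in WT at gamma 12 h (-2.39). In the rapid stress list 0 of 13 genes were called by limma after gamma rays, 1 passed at an unadjusted p under 0.05 (13.9% of all genes), and the median was 0.06. WRKY53 averaged 4.22 in atm-1 and 4.16 in WT at gamma 12 h, a difference of 0.05 (SE 0.28), and the arrays overlapped. The difference between radiations was itself tested: the genotype difference at HZE 12 h differed from that at gamma 12 h for 402 genes (3.01%), 140 upwards (1.05%) and 262 downwards (1.96%), with 26 (0.195%) of the upward and 152 (1.14%) of the downward ones at least 2-fold. It was -4.06 for AT3G02840 (adjusted p 2.92e-05), -3.56 for STZ (adjusted p 0.00106), -2.75 for WRKY53 (adjusted p 5.1e-05) and -1.12 for AT5G60250 (adjusted p 0.000748). It was 0.87 for 3xHMG-box2 (SE 0.30, adjusted p 0.117), 0.20 for AUR1 (SE 0.23, adjusted p 0.869) and 0.03 for HTB2 (SE 0.22, adjusted p 0.988), and these misses do not show that the radiations acted alike.

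At gamma 24 h, sampled at 8:40 am, all 13 rapid stress genes lay below WT in atm-1, with a median of -1.47. Of the 157 genes at least 2-fold lower at HZE 12 h, 145 lay below WT at gamma 24 h, with a median of -0.82. Without irradiation, averaged over both days, 123 of the 157 lay below WT, with a median of -0.15. At HZE 24 h 148 did, with a median of -0.72. The share of all genes below WT at gamma 24 h is not given here. AT3G02840 averaged 3.93 in atm-1 and 6.51 in WT at gamma 24 h. In unirradiated seedlings of day 2, collected at 9:15 am, some members were as far apart. STZ averaged 8.22 in atm-1 and 11.01 in WT at gamma 24 h, and 5.82 in atm-1 and 9.16 in WT without irradiation on day 2. AT4G29780 averaged 6.61 in atm-1 and 9.90 in WT at gamma 24 h, and 5.37 in atm-1 and 8.54 in WT without irradiation on day 2. Gamma 24 h was described here and not tested, and the same 157 genes had a median of -0.04 at gamma 12 h.

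**Figure D5:**
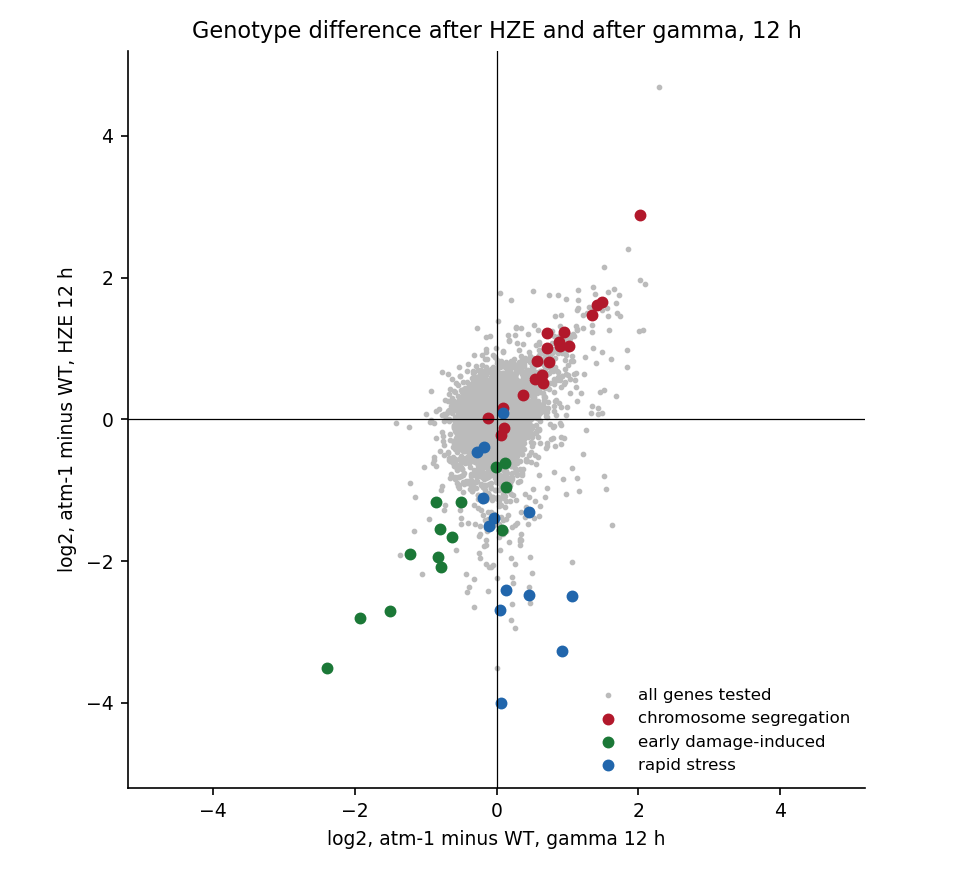
Difference between atm-1 and WT 12 h after HZE (vertical, log2) against that 12 h after gamma rays (horizontal, log2) for 13356 genes in grey, from separate arrays. Chromosome segregation genes (red, medians 0.91 and 0.71) lie near the diagonal, early damage-induced genes (green, medians -1.61 and -0.79) below it, and rapid stress genes (blue, medians -1.50 and 0.06) hang near 0 on the gamma axis.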

How the data were processed

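Whole-seedling RNA of 22 groups, 2 arrays each, was hybridised to Affymetrix arrays with 1 colour. The values that the authors deposited are log2 signals of probe sets, and the submitters' processing notes name GCOS 1.2, RMA and affy. The settings, and whether RMA was run on all arrays at once, are not given in the sources used here. No further scaling was applied. Medians of the 44 arrays lay between 5.73 and 5.98, replicate pairs had correlations between 0.990 and 0.997, and none of 946 pairs of arrays held the same values. Precision is limited by having 2 arrays in a group.

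Of 22810 probe sets, 64 were controls. Of the remainder, 13513 had 1 gene in the platform annotation, 503 several and 8730 none, and 13436 took their symbol from the gene table. Where a gene had several probe sets (146 genes) the brightest on average was used, giving 13356 genes. A model with a mean for each group was fitted to all arrays in limma 3.58.1 under R 4.3.3, with eBayes and no trend (22 residual and 7.82 prior degrees of freedom). P-values were adjusted by Benjamini-Hochberg over all genes and called below 0.05. The fit was tested on simulated data.

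Members and lists were chosen with earlier results of these data known. By rule the text drew on the 12 highest and 12 lowest called genes with separated arrays, and on up to 4 members, by size of difference, of each list with 3 or more measured genes; other genes were chosen after their values were seen. Alternatives concerned scaling, low signals, the variance prior, the arrays fitted, probe sets, a replicate block and left-out arrays. Promoters were not analysed here.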

Additional observations from a re-analysis of the deposited data

Results flagged for a closer look

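The genotype difference at HZE 12 h was set against the same difference in 2 other conditions by a test of the difference itself (limma, adjusted over all genes), and genes that passed are given here as values. Against unirradiated seedlings 654 genes passed, and against gamma 12 h 402 genes passed. In the first of these radiation, hour of day and, in part, age change together. The unirradiated seedlings were collected in the morning and the HZE 12 h seedlings at night, and the unirradiated seedlings of day 2 were older. In the second, radiation, dose and hour of day change together. Their parts cannot be told apart.

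The values that follow are the genotype difference at HZE 12 h minus that at gamma 12 h, on the log2 scale. They are for named genes that were called at HZE 12 h and passed, and the list is not complete. Among rapid stress, calcium and U-box genes it was -4.18 for AT4G29780, -4.06 for AT3G02840, -3.56 for STZ, -2.94 for CML38, -2.75 for WRKY53, -2.53 for PUB23, -2.30 for PUB19, -1.78 for WRKY22 and -0.92 for PUB22. Among early damage-induced genes it was -1.63 for AT3G48770, -1.30 for AT4G25330, -1.20 for AT3G45730, -1.12 for AT5G60250, -1.12 for AT4G22960, -1.09 for AT5G67460, -0.89 for AT2G45460 and -0.76 for AT5G48020. In defence and hormone genes it was -2.83 for ORA47 and -1.94 for SAG101. Among other loci it was -3.52 for AT5G52050, -3.21 for AT2G24600, -3.07 for AT1G19380, -3.04 for AT3G01830, -1.17 for AT2G21640 and -0.88 for AT3G61960. For membrane, wall and stress proteins it was -1.83 for TET8, -1.78 for EXO, -1.60 for XTH18, -1.38 for TET9, -0.99 for SWEET14, -0.60 for BZIP60 and -0.60 for TIL. Among the genes listed here it was above 0 for 4, at 1.30 for AT3G28320, 1.00 for EXPA16, 0.63 for TUB7 and 0.46 for HTB4. The clock gene GI, not called at HZE 12 h, passed as well, at 0.77 (adjusted p 0.0111).

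Probe sets that carry no gene or several genes took no part in the report. Of 9233 such probe sets 1086 (11.8%) differed between atm-1 and WT at HZE 12 h, 557 higher and 529 lower in atm-1, and 217 (2.35%) differed in unirradiated seedlings.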

How the results depend on the processing

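Of 87 recomputed counts 61 stayed within 1.5 times of the reported one. Of 1069 recomputed values of 99 called named genes, 0 changed sign and 81 were no longer called, 67 of these with an array left out. With every probe set tested, which tests more features, the calls were 2292 at HZE 12 h, 414 in unirradiated seedlings, 1322 for HZE 12 h against unirradiated, 2426 at HZE 6 h, 921 at gamma 12 h and 878 for HZE 12 h against gamma 12 h. Unirradiated calls were 270 on day 1 alone and 89 on day 2 alone, and gamma 12 h calls were 697 with only the arrays compared. The cause was not tested.

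Leaving out 1 array, with the lone sample assumed to vary like the other groups, gave 674 to 863 calls at HZE 12 h, 45 to 178 in unirradiated seedlings, 399 to 637 for HZE 12 h against unirradiated, 670 to 927 at HZE 6 h, 195 to 258 at gamma 12 h and 198 to 350 for HZE 12 h against gamma 12 h. For HZE 12 h the count was lowest without atm-1 replicate 1, and without atm-1 replicate 2 it was 692. The other arrays that moved a count by over 1.5 times were these. Unirradiated calls were 45 without atm-1 day 1 replicate 2, 94 without atm-1 day 2 replicate 1, 54 without WT day 1 replicate 1 and 75 without WT day 2 replicate 2. Calls against unirradiated were 412 without atm-1 HZE 12 h replicate 1 and 399 without its replicate 2. HZE 6 h calls were 670 without WT replicate 1. Gamma 12 h calls were 255 and 195 without atm-1 replicates 1 and 2, and 258 and 220 without WT replicates 1 and 2. Calls against gamma 12 h were 253 and 221 without atm-1 HZE 12 h replicates 1 and 2, 198 without atm-1 gamma replicate 2 and 220 without WT gamma replicate 2.

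The replicate block gave 1082 calls at HZE 12 h and the crossed block, added after seeing the data, 1134. The deviations of same-numbered arrays correlated at -0.111 at HZE 12 h and between -0.155 and 0.183 over the 10 conditions, and the labels tie no number to an HZE run, so the numbers were not taken as pairs. Whether runs were crossed was not tested. With 2 arrays a group, small differences at low signal are the least certain.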
